A study of Homo sapiens with 12 samples.

Results

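The 9 genes described here lie beside SMARCA4 on chromosome 19: DNM2, TMED1, C19orf38, CARM1, YIPF2 and TIMM29 before it, and SPC24, KANK2 and DOCK6 after it. They were chosen by their place next to the gene that the guide RNA targets, and not by any measured value, and they are 9 of the 58290 genes in the tables. Each gene's level is the sum of the estimated counts of its transcript models. Messenger RNA was sequenced in 12 libraries of HEK-293T, a human embryonic kidney cell line with SV40 large T antigen. The cells held a CIRTS protein, an effector assembled from human protein parts that a guide RNA brings to a chosen transcript. The 4 groups of 3 libraries were the nuclease effector (CIRTS-12) with the SMARCA4 guide, the same effector with a non-targeting (NT) guide, the YTHDF2 effector (CIRTS-3) with the SMARCA4 guide, and the YTHDF2 effector with the NT guide. They are called nuclease-SMARCA4, nuclease-NT, YTHDF2-SMARCA4 and YTHDF2-NT.

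A CIRTS guide is meant to pair with an RNA and not with DNA. The nuclease is there to cut the bound RNA, and YTHDF2, a protein that reads m6A marks, brings the enzymes that shorten poly(A) tails. SMARCA4 encodes BRG1, the ATPase of the BAF chromatin remodelling complexes. The comparison made here is whether the transcripts of genes that share the locus, but not the sequence, differ when a SMARCA4 guide replaces the NT guide. The guide sequence, its site on SMARCA4, the dose of each construct, the culture dates and the share of cells that took up the constructs are not stated in the labels. The series calls the libraries of a group biological replicates without saying what separates them, so p-values speak only of the spread among them. Each effector and any batch it was handled in cannot be told apart. In bulk RNA, fewer cells that express a gene and less RNA per cell cannot be told apart.

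The 9 genes have unrelated functions. DNM2 encodes dynamin 2, a GTPase that pinches vesicles off membranes. TMED1 is a p24 family protein of transport between the endoplasmic reticulum and the Golgi, and YIPF2 is a membrane protein of the Golgi. TIMM29 is a subunit of the TIM22 complex, which inserts carrier proteins into the inner mitochondrial membrane. CARM1 is an arginine methyltransferase that modifies histone H3 and coactivators. SPC24 is a subunit of the NDC80 complex, through which kinetochores hold microtubules. KANK2 is an adaptor protein found around focal adhesions, and DOCK6 is an exchange factor that activates the small GTPases Rac1 and Cdc42. C19orf38, also called HIDE1, encodes a membrane protein known from immune cells.

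In GENCODE release 29 (GRCh38), SMARCA4 (ENSG00000127616.17) spans 10960825 to 11079426 on the plus strand of chromosome 19. The nearest listed gene is TIMM29 (ENSG00000142444.6, 10928733 to 10933535, plus strand), which ends 27.3 kb before SMARCA4. YIPF2 (ENSG00000130733.10, 10922185 to 10928681, minus strand) lies 32.1 kb before it and CARM1 (ENSG00000142453.11, 10871513 to 10923070, plus strand) 37.8 kb before it. C19orf38 (ENSG00000214212.8, 10836575 to 10869790, plus strand) lies 91.0 kb away on that side, TMED1 (ENSG00000099203.6, 10832438 to 10836318, minus strand) 124.5 kb and DNM2 (ENSG00000079805.16, 10718079 to 10833488, plus strand) 127.3 kb. Past the end of SMARCA4, SPC24 (ENSG00000161888.11, 11131520 to 11155808) lies 52.1 kb away, KANK2 (ENSG00000197256.10, 11164267 to 11197791) 84.8 kb and DOCK6 (ENSG00000130158.13, 11199295 to 11262481) 119.9 kb, all 3 on the minus strand. Each range takes in the exons and introns of the gene.

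No listed gene overlaps SMARCA4, but some overlap each other. The ends of DNM2 and TMED1 overlap by 1051 bases and those of CARM1 and YIPF2 by 886 bases, on opposite strands, and the 3′ end of SPC24 overlaps a plus-strand gene that is not analysed here. Of TMED1's 1625 distinct stretches of 31 bases, 748 also occur in DNM2 on either strand, and 856 of YIPF2's 2790 occur in CARM1. No source states whether the counting used strand, so the counts within each of these pairs may be shared. For the same reason, the counts of SPC24 may hold reads of the gene that it overlaps. With SMARCA4, 8 of the 9 genes shared no stretch of 31 bases and SPC24 shared 1 of its 2923, as far as SMARCA4's models are known: sequence was at hand for 10 of its 19 models and for all 93 models of the 9 genes.

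Both head-to-head pairs of the locus start close to each other, and the DNA between their starts is shown because each pair shares it (GRCh38.p14, RefSeq, plus strand). YIPF2 and TIMM29 start 51 bases apart, at chr19:10928682-10928732, and the capitals mark CTTCCGG, the reverse complement of CCGGAAG, a core that ETS family factors are known to bind. TMED1 and C19orf38 start 256 bases apart, and the 144 bases next to TMED1, chr19:10836319-10836462, hold none of the motifs searched.
between YIPF2 and TIMM29: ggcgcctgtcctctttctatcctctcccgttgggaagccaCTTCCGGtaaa
between TMED1 and C19orf38: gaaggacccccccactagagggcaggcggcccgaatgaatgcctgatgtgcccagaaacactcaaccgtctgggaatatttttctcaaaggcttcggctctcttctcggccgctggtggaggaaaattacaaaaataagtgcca
The CCAAT box, the GC box (GGGCGG), the ETS core (CCGGAAG) and the TATA box (TATAAA) were searched on both strands in windows from 250 bases before to 50 bases after a start, which were at hand for 7 of the 9 genes. GGGCGG was in the windows of 6 (DNM2, TMED1, CARM1, TIMM29, SPC24 and KANK2), against 45% of 35116 windows of all genes. CCAAT was in 3 (DNM2, TMED1 and SPC24), against 34.6%. CCGGAAG was in the overlapping windows of YIPF2 and TIMM29, which share the same site, against 10.3%, and TATAAA was in 0, against 11.5%. A match describes the letters and not a site in use.

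**Figure D1:**
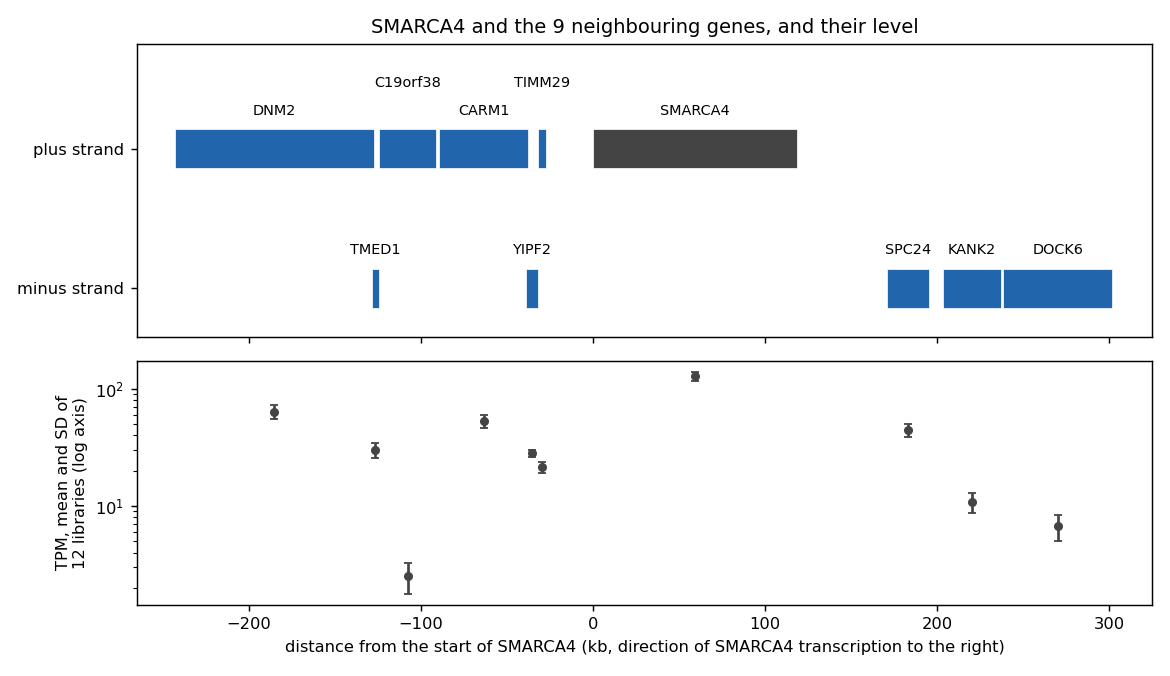
The upper panel maps SMARCA4 (dark) and the 9 genes by strand against the distance in kb from the start of SMARCA4. The lower panel gives each gene's TPM on a log axis as the mean and SD of the 12 libraries, from 128 ± 11.5 for SMARCA4 to 2.51 ± 0.73 for C19orf38; the levels show no order along the map.

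Library totals ranged from 9207196 to 18047859 estimated counts, and the 9 genes together held 0.041 to 0.0488% of them. All 9 passed the filter on low counts, which kept 16297 genes. Of 11 markers of HEK-293T cells, all reached a mean of at least 1 TPM, against 1 of 6 for fibroblasts (COL1A1), 1 of 6 for blood and 0 of 5 for liver. The 3 YTHDF2-NT libraries differed most among themselves. Each library was set against the mean of the 12 and its deviations were compared with transcript length over the 16297 genes: Spearman's rho was −0.49, 0.43 and −0.23 in YTHDF2-NT 1, 2 and 3, against −0.24 to 0.27 in the other libraries.

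SMARCA4 itself, the target, did not pass the test with either effector. Its level is the sum of all its models and not of coding mRNA alone. SMARCA4-219, annotated as a retained intron, held 34.3% of its counts, and the coding models SMARCA4-204 and SMARCA4-201 held 23.6% and 22%. The sum was at 238.81, 250.02 and 219.62 CPM (counts over the library total after TMM scaling) in nuclease-SMARCA4, against 225, 245 and 242 CPM in nuclease-NT. It was at 243, 210.2 and 221 CPM in YTHDF2-SMARCA4, against 302, 235 and 250.2 CPM in YTHDF2-NT. In CPM the groups overlapped in both cases. In TPM they overlapped with the nuclease but not with YTHDF2, at 124, 108 and 123 in YTHDF2-SMARCA4, against 132, 129.7 and 135 in YTHDF2-NT. The share of all genes without overlap in TPM was not computed, so this separation has no background to be set against. In CPM that share was 9.27% between the YTHDF2 guides. The log2 fold change was −0.01 with the nuclease (SE 0.0948, edgeR quasi-likelihood adjusted p = 0.985) and −0.22 with YTHDF2 (SE 0.0947, edgeR adjusted p = 0.703). With YTHDF2 the unadjusted p was below 0.05 and the 95% interval ran from −25.7 to −1.38%, but the value did not pass over all genes.

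The 9 genes differed widely in level. On the length-normalized TPM scale, over all 12 libraries, DNM2 was at 63.6 ± 8.71, CARM1 at 53 ± 6.61 and SPC24 at 44.4 ± 5.73 (SD, n = 12), all below SMARCA4 at 128 ± 11.5. TMED1 was at 30 ± 4.61 TPM, YIPF2 at 28.1 ± 1.95 and TIMM29 at 21.4 ± 2.39. KANK2 was at 10.8 ± 2.02 TPM, DOCK6 at 6.67 ± 1.69 and C19orf38 at 2.51 ± 0.73. The place of a gene in this order was not the same in every library for 3 neighbouring pairs: DNM2 exceeded CARM1 in 10 of 12 libraries, CARM1 exceeded SPC24 in 11 and TMED1 exceeded YIPF2 in 8. The other 5 neighbouring pairs kept their order in 12 of 12 libraries, and TIMM29 and KANK2 were the pair whose ranges did not overlap. C19orf38 rested on 15 to 46 counts per library, so only large differences could have been detected for it, while DNM2 had 1357 to 2597 counts and CARM1 1225 to 2317.

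**Figure D2:**
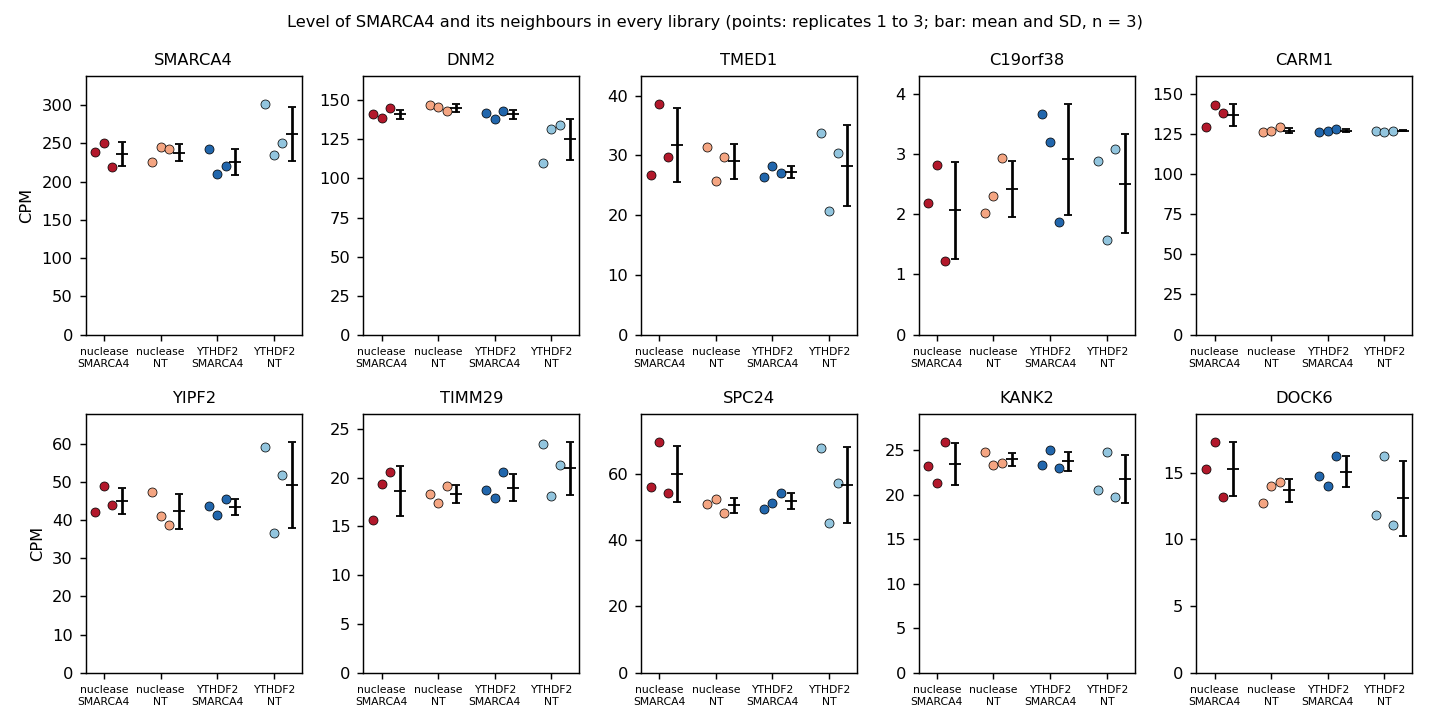
Each panel plots the CPM of SMARCA4 or a neighbour in the 12 libraries by group, with points for replicates 1 to 3 and a bar for the mean and SD (n = 3). The groups overlap in most panels; SPC24 and CARM1 lie higher in nuclease-SMARCA4 than in nuclease-NT, and YTHDF2-NT has the widest spread for DNM2, TMED1, YIPF2 and SPC24.

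With the nuclease, none of the 9 neighbours passed the test between the SMARCA4 guide and the NT guide. The 2 with the smallest p-values were SPC24 and CARM1, both with higher means with the SMARCA4 guide. The edgeR test called 0 of the 9 at an adjusted p below 0.05, against 0.00614% of all genes tested, and 0 had an unadjusted p below 0.05, against 10.9% of all genes. DESeq2 also called 0, against 0.859% of all genes, and 0 were below 0.05 unadjusted, against 9.98%. Of the 9, 6 had a positive log2 fold change and 3 a negative one, with a median of 0.09, against a median of 0.00 for all genes.

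SPC24 was at 56, 69.7 and 54.1 CPM in nuclease-SMARCA4, against 51, 52.5 and 48 CPM in nuclease-NT. The groups did not overlap, and replicate 2 with the SMARCA4 guide stood highest. Its log2 fold change was 0.25 (SE 0.132, edgeR adjusted p = 0.527), or 18.6% with a 95% interval from −2.64 to 44.5%. It was 0.12 without nuclease-SMARCA4 2, in which shorter transcripts were relatively high (rho −0.24). CARM1 was at 129.6, 143 and 138 CPM in nuclease-SMARCA4, against 126, 127 and 129 CPM in nuclease-NT. The groups again did not overlap, but the nearest libraries were at 129.58 and 128.74 CPM. Its log2 fold change was 0.11 (SE 0.0598, edgeR adjusted p = 0.546), which is 7.73% (interval −1.48 to 17.8%), and it was 0.07 without nuclease-SMARCA4 2 and 0.25 with length-scaled counts (edgeR adjusted p = 0.47). The exact two-sided permutation test gave p = 0.1 for both genes, the smallest value that 3 libraries against 3 allow. Groups that do not overlap were common in this comparison, at 25.1% of all genes, and 2 of the 9 neighbours were among them.

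The other 7 genes overlapped between the guides. TMED1 was at 26.8, 38.7 and 29.7 CPM in nuclease-SMARCA4, against 31.4, 25.8 and 29.8 CPM in nuclease-NT (log2 0.13, SE 0.167, edgeR adjusted p = 0.814). DOCK6 was at 15.31, 17.33 and 13.22 CPM in nuclease-SMARCA4, against 12.7, 14 and 14.3 CPM in nuclease-NT (log2 0.17, edgeR adjusted p = 0.719, and 0.69 with length-scaled counts, edgeR adjusted p = 0.486). The nuclease-SMARCA4 2 library was the highest for both. YIPF2 was at 42.3, 49 and 44 CPM in nuclease-SMARCA4, against 47.5, 41.1 and 38.7 CPM in nuclease-NT (log2 0.09, edgeR adjusted p = 0.864). TIMM29, the listed gene nearest to SMARCA4, was at 15.7, 19.4 and 20.6 CPM in nuclease-SMARCA4, against 18.3, 17.4 and 19.2 CPM in nuclease-NT. Its log2 fold change of 0.02 (SE 0.125, edgeR adjusted p = 0.973) was the smallest in size of the 9.

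DNM2 was at 141, 139 and 145 CPM in nuclease-SMARCA4, against 147, 146 and 143 CPM in nuclease-NT, or −2.77% with an interval from −13 to 8.73% (edgeR adjusted p = 0.882). KANK2 was at 23.3, 21.3 and 26 CPM in nuclease-SMARCA4, against 24.8, 23.4 and 23.6 CPM in nuclease-NT (log2 −0.03, edgeR adjusted p = 0.948). C19orf38 was at 2.19, 2.82 and 1.22 CPM in nuclease-SMARCA4, against 2.02, 2.31 and 2.94 CPM in nuclease-NT. Its interval ran from −49.6 to 50%, by far the widest of the 9 (edgeR adjusted p = 0.88). A fit of the 6 nuclease libraries alone called 550 of 15426 genes, or 3.57%, and 0 of the 9, with a smallest adjusted p of 0.141 for SPC24.

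**Figure D3:**
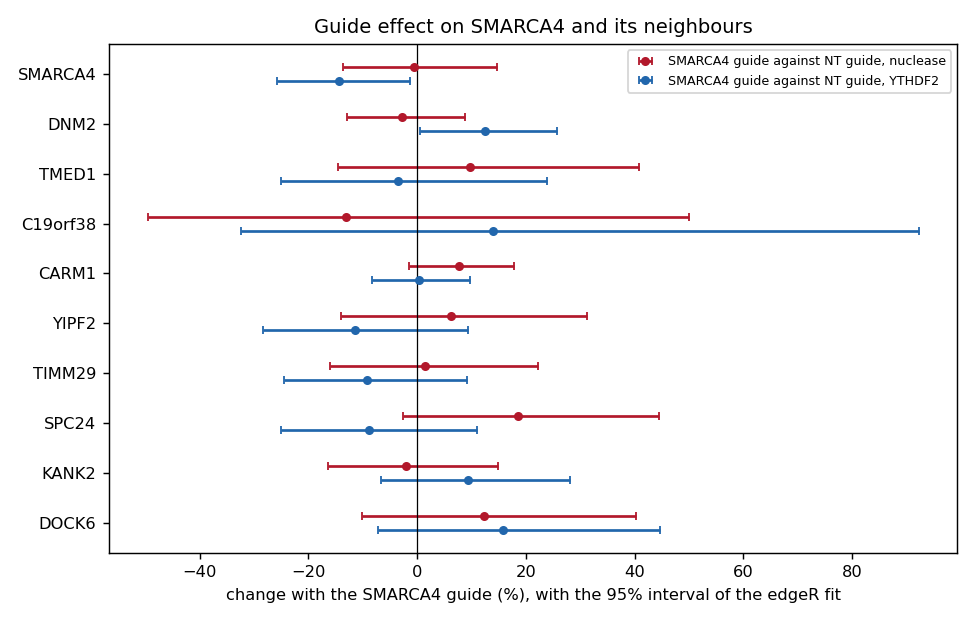
The change in level with the SMARCA4 guide against the NT guide, in percent with its 95% interval from the edgeR fit, for SMARCA4 and each neighbour, with the nuclease (red) and with YTHDF2 (blue). All 9 nuclease intervals of the neighbours cross 0, and with YTHDF2 the interval of SMARCA4, from −25.7 to −1.38%, lies below 0 and that of DNM2, from 0.596 to 25.8%, just above 0.

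With YTHDF2, again none of the 9 passed the test between guides, and the gene with the smallest p-value was DNM2, farthest from SMARCA4 on the map. DNM2 was at 142, 138 and 143 CPM in YTHDF2-SMARCA4, against 110.1, 132 and 134 CPM in YTHDF2-NT. The groups did not overlap, as was so for 9.27% of all genes, and YTHDF2-NT 1 was the lowest library. The log2 fold change was 0.17 (SE 0.0748, edgeR adjusted p = 0.703), which is 12.5% (interval 0.596 to 25.8%), and the exact permutation p was 0.1. It was 0.08 without YTHDF2-NT 1. The edgeR test called 0 of the 9, against 0% of all genes, with 1 (DNM2) below 0.05 unadjusted, where 6.82% of all genes were. DESeq2 called 0, against 0.00614% of all genes, and also had 1 below 0.05 unadjusted, against 6.14%. Of the 9, 5 had a positive log2 fold change and 4 a negative one, with a median of 0.00, against −0.01 for all genes.

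CARM1 was the steadiest gene in CPM in this comparison, at 126, 127 and 128 CPM in YTHDF2-SMARCA4, against 127, 126 and 127 CPM in YTHDF2-NT. The difference was 0.341% with an interval from −8.23 to 9.71% (edgeR adjusted p = 0.985), the narrowest of the 9. In TPM it was less steady, at 52.6, 57.8 and 55.5 in YTHDF2-SMARCA4, against 34.9, 54 and 48.6 in YTHDF2-NT. With length-scaled counts its log2 fold change was 0.15 (edgeR adjusted p = 0.742). YIPF2, TIMM29 and TMED1 varied more among the NT libraries than among the SMARCA4-guide libraries. YIPF2 was at 43.8, 41.5 and 45.7 CPM in YTHDF2-SMARCA4, against 59.2, 36.8 and 51.8 CPM in YTHDF2-NT (log2 −0.18, SE 0.141, edgeR adjusted p = 0.765). TIMM29 was at 18.7, 17.9 and 20.6 CPM in YTHDF2-SMARCA4, against 23.5, 18.1 and 21.3 CPM in YTHDF2-NT (log2 −0.14, edgeR adjusted p = 0.784). The lower means of both rested on the 2 higher of the NT libraries, and the groups overlapped. TMED1 was at 26.4, 28.3 and 27.1 CPM in YTHDF2-SMARCA4, against 33.7, 20.7 and 30.4 CPM in YTHDF2-NT (log2 −0.05, edgeR adjusted p = 0.943).

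SPC24, the gene with the largest log2 fold change in the nuclease cells, was at 49.5, 51.3 and 54.2 CPM in YTHDF2-SMARCA4, against 67.9, 45 and 57.3 CPM in YTHDF2-NT. The NT libraries lay on both sides of the SMARCA4-guide libraries (log2 −0.13, SE 0.132, edgeR adjusted p = 0.803). KANK2 was at 23.4, 25 and 23 CPM in YTHDF2-SMARCA4, against 20.6, 24.8 and 19.8 CPM in YTHDF2-NT (log2 0.13, edgeR adjusted p = 0.768). DOCK6 was at 14.8, 14 and 16.3 CPM in YTHDF2-SMARCA4, against 11.8, 16.3 and 11.1 CPM in YTHDF2-NT (log2 0.21, SE 0.148, edgeR adjusted p = 0.737). In both genes YTHDF2-NT 2 reached the level of the SMARCA4-guide libraries while YTHDF2-NT 1 and 3 lay below them. C19orf38 was at 3.66, 3.2 and 1.87 CPM in YTHDF2-SMARCA4, against 2.88, 1.58 and 3.08 CPM in YTHDF2-NT (log2 0.19, SE 0.35, edgeR adjusted p = 0.898).

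The guide effect did not pass a test of its difference between the effectors for any of the 9 genes. The edgeR interaction test called 0 of the 9, against 0% of all genes, and 0 of the 9 had an unadjusted p below 0.05, against 11.1%. DESeq2 also called 0, against 0.337% of all genes, with 1 below 0.05 unadjusted, against 10.3%. For SPC24 the effect with YTHDF2 minus that with the nuclease was −0.38 on the log2 scale, with an interval from −0.78 to 0.02 (edgeR adjusted p = 0.47). For DNM2 it was 0.21, with an interval from −0.02 to 0.44 (edgeR adjusted p = 0.476). These 2 genes had the smallest p-values, and their effects ran in opposite directions. For the other 7 the adjusted p ran from 0.63 (YIPF2) to 0.949 (DOCK6).

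Between effectors, YTHDF2 against the nuclease, no neighbour passed the test with either guide. With the SMARCA4 guide the edgeR test called 0 of 9, against 0.00614% of all genes, and 0 were below 0.05 unadjusted, against 11.5%. DESeq2 gave 0 on both counts, against 0.626% and 10.5% of all genes. CARM1 had the smallest p, with 126, 127 and 128 CPM in YTHDF2-SMARCA4, against 129.6, 143 and 138 CPM in nuclease-SMARCA4 (log2 −0.11, SE 0.0596, edgeR adjusted p = 0.508). Its groups did not overlap, as was so for 26.7% of all genes. With the NT guide 0 of 9 were called, against 0.0491% of all genes, and DNM2 was the 1 of the 9 below 0.05 unadjusted, against 10.9%. DESeq2 also called 0, against 0.663%, and had 1 below 0.05 unadjusted, against 10.1%. In both effector comparisons DESeq2 gave no adjusted p for C19orf38, so that gene could not be called by it. DNM2 was at 110.1, 132 and 134 CPM in YTHDF2-NT, against 147, 146 and 143 CPM in nuclease-NT. Every YTHDF2-NT library lay below every nuclease-NT library, and 12.8% of all genes had no overlap, in either direction. Its log2 fold change was −0.22 (SE 0.075, edgeR adjusted p = 0.332), which is −13.9% (interval −23 to −3.63%), and −0.13 without YTHDF2-NT 1. DNM2 was at 141 ± 2.85 CPM in YTHDF2-SMARCA4 and 141 ± 2.86 CPM in nuclease-SMARCA4 (SD, n = 3 each); the difference between the guides in this respect is the interaction above, which did not pass. The effector and guide comparisons share groups, so these values and those between guides rest on the same YTHDF2-NT libraries.

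The neighbours' differences with YTHDF2 depended on which NT library was counted. YTHDF2-NT 1 exceeded YTHDF2-NT 2 in all 5 genes whose transcripts average 1117 to 1844 bases, by 1.30-fold for TIMM29, 1.63-fold for TMED1, 1.82-fold for C19orf38, 1.51-fold for SPC24 and 1.61-fold for YIPF2. Among the 4 genes that average 2429 to 2734 bases it was lower in 3, with a ratio of 0.72 for DOCK6, 0.83 for KANK2 and 0.84 for DNM2, and level with YTHDF2-NT 2 for CARM1 (1.003). The 5 shorter genes thus lay apart from the 4 longer ones, but length did not order the ratios further. TIMM29, the shortest, had the smallest ratio of the 5, and CARM1, the longest, had the largest of the 4. Over all genes tested, the absolute log2 ratio of these libraries had a median of 0.41. The spread in YTHDF2-NT was 23.9% of the mean for TMED1, 23.2% for YIPF2, 20.3% for SPC24 and 10.5% for DNM2, against 3.63%, 4.79%, 4.53% and 2.02% in YTHDF2-SMARCA4. The fit shares its spread among all groups, so its intervals may be too narrow for the comparisons that use YTHDF2-NT. They may be too wide for the nuclease guide comparison and for the effector comparison with the SMARCA4 guide.

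Without YTHDF2-NT 2, YIPF2 passed between guides with YTHDF2 (log2 −0.34, edgeR adjusted p = 0.0457), as did SMARCA4 (−0.29, edgeR adjusted p = 0.0486). Of all genes 9.46% then passed, and over all genes the fold change and transcript length had a Spearman rho of 0.42. Without YTHDF2-NT 1 the same values were −0.03 for YIPF2 and −0.11 for SMARCA4, and none of the 9 passed. In the fit without YTHDF2-NT 2 the interaction was called for SPC24 (−0.51, edgeR adjusted p = 0.0419), where 8.62% of all genes passed; without YTHDF2-NT 1 it was −0.23. YIPF2 (0.37, edgeR adjusted p = 0.0334) and DNM2 (−0.26, edgeR adjusted p = 0.0481) passed between effectors with the NT guide, where 9.61% of all genes passed. With the length trend of each library removed and all libraries kept, DNM2 was at 0.15 between guides with YTHDF2 (edgeR adjusted p = 0.541) and SPC24 at 0.22 with the nuclease (edgeR adjusted p = 0.326).

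**Figure D4:**
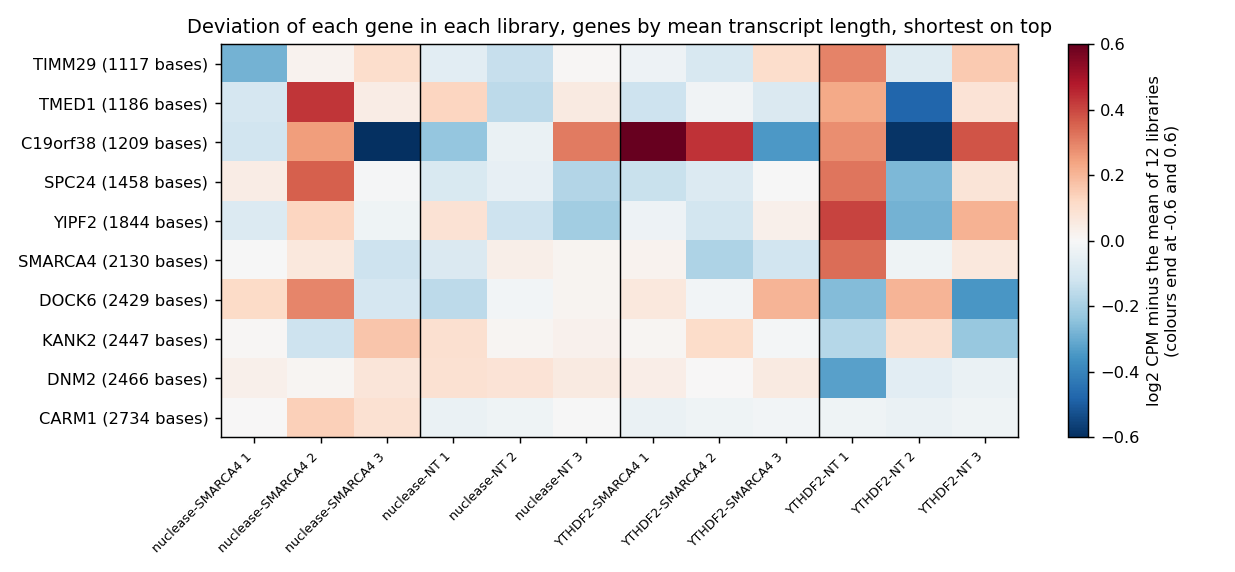
The colour gives each gene's log2 CPM in each library minus its mean over the 12 libraries (red above, blue below, colours end at −0.6 and 0.6), with genes ordered by mean transcript length, shortest on top. In YTHDF2-NT 1 the 5 shortest neighbours lie above their mean and DNM2, KANK2 and DOCK6 below it, and YTHDF2-NT 2 shows the 5 shortest below their mean.

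Single transcript models of the 9 genes did not pass either. Of 93 models, 34 had enough counts to be tested, and edgeR called 0 of them in each of the 5 comparisons, as did DESeq2. Of all 49518 transcripts tested, DESeq2 called 0.622 to 0.947% across the comparisons. The edgeR test called 0.00202% between the nuclease guides, 0.00606% between the YTHDF2 guides and 0.00606% in the interaction. Between effectors 0.00808% were called with the SMARCA4 guide and 0.00404% with the NT guide. At an unadjusted edgeR p below 0.05 there were 0 of the 34 between the nuclease guides, against 4.72% of all transcripts, 1 between the YTHDF2 guides, against 4.33%, and 2 in the interaction, against 5.11%. Between effectors there was 1 with each guide, against 4.44% with the SMARCA4 guide and 5.17% with the NT guide. Estimates per transcript were far noisier than per gene, with a biological coefficient of variation of 83.8%, against 11.4% for genes. YIPF2, TMED1, C19orf38 and SPC24 each had 1 dominant protein-coding model: YIPF2-201 held 89.6% of the gene's counts, TMED1-201 87.3%, C19orf38-201 93.1% and SPC24-206 76.4%. SPC24-206 had the smallest p of the 34 with the nuclease guides (log2 0.31, edgeR adjusted p = 1).

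Other genes were spread over several models. CARM1-201 held 64.1% of that gene's counts and CARM1-202 29%, DNM2-203 held 34.1% and DNM2-205 27.2%, and KANK2-204 held 54.8% and KANK2-201 39.2%. DNM2-205 ran from 6.36 to 41.5% of its gene in single libraries, with both ends in YTHDF2-NT (replicates 1 and 2), where its share was 22.5 ± 17.8% (SD, n = 3), against 30.9 ± 2.05% in YTHDF2-SMARCA4. TIMM29 divided between the coding model TIMM29-201, with 67% of its counts, and TIMM29-202, annotated as a target of nonsense-mediated decay, with 31.9%. The share of TIMM29-202 was 26.3 ± 8.5% in nuclease-SMARCA4, against 29.2 ± 7.2% in nuclease-NT, and 39.3 ± 5.68% in YTHDF2-SMARCA4, against 31.1 ± 6.68% in YTHDF2-NT (SD, n = 3 each). DOCK6-201 held 54.1% of DOCK6, and DOCK6-207 held 21.9 ± 2.45% in YTHDF2-SMARCA4, against 13.8 ± 2.01% in YTHDF2-NT. That model had the smallest p between guides with YTHDF2 (log2 0.91, edgeR adjusted p = 1) and between effectors with the NT guide (log2 −1.13, edgeR adjusted p = 0.936). The part that the division of reads among overlapping models plays in these shares was not tested.

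The 9 genes did not move together across the libraries. Over the 36 pairs of neighbours, Pearson's r of log2 CPM across the 12 libraries had a median of 0.07 and ran from −0.72 (YIPF2 and KANK2) to 0.82 (YIPF2 and SPC24). The libraries share depth and length trends, so these values are descriptions. TMED1 and SPC24 were at 0.80 and TMED1 and YIPF2 at 0.71. Of the pairs that start head to head, YIPF2 and TIMM29 were at 0.70 and TMED1 and C19orf38 at 0.33, and the overlapping pairs DNM2 and TMED1 (−0.18) and CARM1 and YIPF2 (0.10) were lower. With SMARCA4, r ran from −0.77 for DNM2 to 0.61 for YIPF2. The gene most like each neighbour over the 12 libraries was PRKACA for DNM2 (r = 0.96), FBXW9 for TMED1 (0.98), SEMA3G for C19orf38 (0.86), ACBD4 for CARM1 (0.89), PSENEN for YIPF2 (0.96), IL27RA for TIMM29 (0.93), RNF5 for SPC24 (0.96), PCDH20 for KANK2 (0.88) and KAZN for DOCK6 (0.90).

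A wider list of 38 genes around the 9 gave 30 that could be tested. The edgeR test called 0 of them in either guide comparison, with 2 below 0.05 unadjusted with the nuclease, against 10.9% of all genes, and 0 with YTHDF2, against 6.82%. DESeq2 called 0 in both, against 0.859% and 0.00614% of all genes. With the nuclease, 19 had a positive log2 fold change and 11 a negative one, with a median of 0.01. Without nuclease-SMARCA4 2 the split was 12 and 18, with a median of −0.02. The smallest p-values belonged to DNMT1, the maintenance DNA methyltransferase, and ICAM3, a leukocyte adhesion molecule. DNMT1 was at 174, 171 and 178 CPM in nuclease-SMARCA4, against 193, 211 and 203 CPM in nuclease-NT, with no overlap (log2 −0.22, SE 0.0812, edgeR adjusted p = 0.36). ICAM3, a gene of low level, was at 1.68, 2.04 and 2.92 CPM in nuclease-SMARCA4, against 3.57, 4.28 and 3.57 CPM in nuclease-NT, also with no overlap (log2 −0.80, SE 0.31, edgeR adjusted p = 0.372). In this comparison 25.1% of all genes had no overlap, and these 2 genes were picked by their p-values. A fit of the 6 nuclease libraries alone called 1 of the 30, against 3.57% of all genes.

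With YTHDF2, 22 of the 30 had a negative log2 fold change and 8 a positive one, with a median of −0.16, against −0.01 for all genes. The tested genes of this list have a median length of 1609 bases, against 2048 for all genes tested. The median was −0.04 with the length trend removed, 0.01 without YTHDF2-NT 1 and −0.27 without YTHDF2-NT 2, where 6 of the 30 passed, against 9.46% of all genes. KRI1, a ribosome biogenesis factor, was at 71.2, 62.7 and 63.4 CPM in YTHDF2-SMARCA4, against 89.1, 64.1 and 79.1 CPM in YTHDF2-NT (log2 −0.24, edgeR adjusted p = 0.703). RAVER1, an RNA-binding protein, was at 45, 44.9 and 40.4 CPM in YTHDF2-SMARCA4, against 27.8, 44.1 and 35.7 CPM in YTHDF2-NT (log2 0.28, edgeR adjusted p = 0.703).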

How the data were processed

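The authors deposited 1 table per library with estimated counts and TPM per transcript, made with kallisto on hg38, per the submitters' processing notes. These list sleuth too and give no versions. Per the labels' protocols, RNA came from RNeasy extracts and libraries from the KAPA mRNA HyperPrep kit. TPM, deposited by the authors, divides counts by length and was used for levels only. Estimated counts were summed per gene ID and rounded. The quasi-likelihood test of edgeR 4.0.16 (R 4.3.3; TMM, filterByExpr, 1 mean per group, all 12 libraries, 8 residual degrees of freedom) was two-sided, with Benjamini-Hochberg adjustment over 16297 genes or 49518 transcripts and calls below 0.05. DESeq2 1.42.0 was an alternative, beside other scaling, no filter, 2 groups only, a replicate block, length-scaled counts, the length trend removed and leaving out each library. The fit was tested on simulated counts. Exact permutation tests compared 3 with 3.

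Members and lists were chosen with earlier results of these data known. Named were all 9 genes and SMARCA4, transcript models with at least 20% of a gene's counts, the gene most alike by Pearson's r, and the 2 wider-list genes with the smallest p per guide comparison; the model with the smallest p was added. Libraries with the same number did not deviate together (r −0.06 to 0.06), so numbers were not taken as pairs. No 2 libraries of the same group were duplicates: the chi-square per gene was 3.86 at least. Pairs from different groups are not covered by this check. Positions are from GENCODE release 29, and intervals are for 95% confidence.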

Additional observations from a re-analysis of the deposited data

Results flagged for a closer look

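In 2 of the 9 genes every SMARCA4-guide library lay on one side of the NT mean with YTHDF2 and every one lay on the other side with the nuclease, as in 18.5% of all genes tested. By the sign of the log2 fold change alone, 7 of the 9 genes and 55.8% of all genes ran in opposite directions with the 2 effectors. For DNM2, every SMARCA4-guide library lay above the NT mean with YTHDF2, and every SMARCA4-guide library lay below the NT mean with the nuclease; the difference of the effects was 0.21 on the log2 scale (edgeR adjusted p = 0.476) and 0.13 without YTHDF2-NT 1. For SPC24, every SMARCA4-guide library lay below the NT mean with YTHDF2 and above it with the nuclease; the difference was −0.38 (edgeR adjusted p = 0.47) and −0.23 without YTHDF2-NT 1. Neither passed the interaction test. Both values rest on the YTHDF2-NT libraries, in which these genes varied by 10.5% and 20.3% of their means.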

How the results depend on the processing

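The count of called neighbours was 0 in every comparison that could be fitted under the 7 alternatives that keep all libraries of a comparison (other scaling, no filter, DESeq2, 2 groups only, a replicate block, length-scaled counts, length trend removed), and the interaction could not be fitted with 2 groups only. Same-numbered libraries did not deviate together and each correlated best with its own number in 0 to 2 of 3 cases; with the replicate block 0 neighbours were called. Leaving out 1 library, the count was 0 to 1 for the YTHDF2 guide, 0 to 1 for the interaction and 0 to 2 for the effector with the NT guide, each highest without YTHDF2-NT 2. Calls over all genes varied more. Between the nuclease guides they numbered 1 as reported, 140 with DESeq2, 550 with 2 groups only, 333 with no filter, 27 with the length trend removed, 2 with the block and 0 with length-scaled counts, and between the YTHDF2 guides 0, 1, 0, 214, 0, 0 and 0 in that order. For the interaction they were 0 as reported, 55 with DESeq2, 493 with no filter, 3 with the length trend removed and 1 with the block. For the effector with the SMARCA4 guide they were 1, 102, 296, 13 and 3 in that order, and 660 with 2 groups only. For the effector with the NT guide they were 8, 108, 360, 14 and 4, with 6 for 2 groups only and 1 with length-scaled counts.

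Of 340 log2 values under alternatives with all libraries, 323 kept their direction and 17 turned, none of them called. With length-scaled counts these were DNM2 0.10, YIPF2 0.02 and KANK2 −0.04 for the effector with the SMARCA4 guide, TMED1 0.13 and DOCK6 −0.11 for the YTHDF2 guide, TMED1 0.10, KANK2 −0.03 and DOCK6 −0.80 for the interaction, TIMM29 −0.003 and KANK2 0.16 for the nuclease guide, and DOCK6 0.51 for the effector with the NT guide. With the length trend removed they were TMED1 0.03 and CARM1 −0.03 for the YTHDF2 guide, C19orf38 −0.002 and CARM1 0.03 for the effector with the NT guide, and TIMM29 −0.03 for the nuclease guide. SMARCA4 was at 0.003 for the nuclease guide with no filter. Leaving out 1 library, ranges that include 0 were, for the nuclease guide, SMARCA4 −0.05 to 0.04, TMED1 −0.04 to 0.24, C19orf38 −0.49 to 0.06, TIMM29 −0.06 to 0.13 and KANK2 −0.11 to 0.04. For the YTHDF2 guide they were TMED1 −0.22 to 0.09, C19orf38 −0.05 to 0.45 and SPC24 −0.27 to 0.01, and for the interaction DOCK6 −0.06 to 0.24. For the effector with the SMARCA4 guide they were DNM2 −0.02 to 0.01, YIPF2 −0.09 to 0.02, TIMM29 −0.07 to 0.12, KANK2 −0.05 to 0.09 and DOCK6 −0.12 to 0.08, and with the NT guide TMED1 −0.17 to 0.14, C19orf38 −0.11 to 0.30 and DOCK6 −0.26 to 0.04. The cause was not tested. Counts of 15 to 46 limit C19orf38.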

Other observations

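Of the 9 genes most like the neighbours over the 12 libraries, 4 (PRKACA, FBXW9, PSENEN and IL27RA) also lie on chromosome 19, where 6.92% of all genes tested lie. They are not listed neighbours of SMARCA4: PRKACA starts at position 14091688 and FBXW9 at 12688053 in GENCODE release 29. The top places are near ties: 41 genes had an r within 0.02 of the highest for their neighbour, 16 of them for SPC24, and of the 41, 9 (22%) lie on chromosome 19. The margin was chosen after the values were seen. The libraries' trends with transcript length are shared by many genes, and their part in this count was not tested.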
